A study of Mus musculus with 72 samples.

Results

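The liver genes followed here are 9 genes known in mice to be driven by pulsatile growth hormone, namely Cyp7b1, Hsd3b5, Cyp2d9, C8b, C6, Selenbp2, Elovl3, Slco1a1 and Moxd1. They were chosen by name, with earlier results of these data known. Each was read from its probe set with a single gene symbol, taking the one with the highest mean over all arrays where a gene had several. All 9 were measured, among 19938 genes tested, and each had exactly 1 such probe set. Growth hormone binds its receptor Ghr, which activates the kinase Jak2 and the transcription factor Stat5b. In male rodents the hormone is secreted in pulses separated by troughs, in females more continuously, and many genes of the liver follow this difference, so that pulse-driven genes are higher in male liver. Bcl6 and Cux2 are repressors that help to keep the male and the female programme apart. These roles are background knowledge: all mice here were male and no hormone was measured or given, so the grouping of the 9 genes was not tested by these data.

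The study measured liver mRNA on Affymetrix Mouse Gene ST arrays in wild-type male mice of 4 inbred strains, 129P2/OlaHsd (129 below), C57BL/6J (B6J), C57BL/6NTac (B6N) and C3HeB/FeJ (C3H). All mice were housed singly, and were either fed a high-fat diet (HFD) over 21 days or served as controls. The arrays numbered 7 HFD and 8 control in 129, 7 HFD and 8 control in B6J, 8 HFD and 8 control in B6N, and 8 HFD and 18 control in C3H. HFD mice were 17 weeks old in every strain. Controls were also 17 weeks old in 129, and 15 to 17 weeks old in B6J, B6N and C3H, so age went partly with diet there. The treatment label of the controls reads none, while the protocol gives them a low-fat diet of at most 21 days, so differences are stated against these controls as labelled. The values are deposited log2 expression values. Array medians lay near 3 different levels, 6.46 to 6.65 in 129, 4.51 to 4.67 in both B6 strains and 3.10 to 3.28 in C3H, so levels were compared only within 129, within C3H and among the B6 arrays. Hepatocyte markers were high in every group, with all 13 measured markers above the array median. In bulk liver, fewer cells of a type and less RNA per cell cannot be told apart.

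RefSeq promoter windows, each covering 250 bases before and 50 bases after the annotated start in GRCm38.p6, were given for 7 of the 9 genes, all but Elovl3 and Cyp7b1. The 250 bases before the start are printed for C8b, C6 and Selenbp2, which were lower under HFD in B6N or C3H and varied together between livers, and for Moxd1, the one window that held the letters of a Stat5 site. Each runs 5′ to 3′ on the strand of its gene, and capitals mark a match to a motif that was searched for.
C8b, chr4:104766067-104766316, plus strand: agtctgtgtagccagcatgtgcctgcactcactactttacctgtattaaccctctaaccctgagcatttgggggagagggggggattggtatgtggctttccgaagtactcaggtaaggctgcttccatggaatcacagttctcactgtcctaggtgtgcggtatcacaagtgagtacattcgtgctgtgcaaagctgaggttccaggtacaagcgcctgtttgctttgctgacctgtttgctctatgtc
C6, chr15:4726960-4727209, plus strand: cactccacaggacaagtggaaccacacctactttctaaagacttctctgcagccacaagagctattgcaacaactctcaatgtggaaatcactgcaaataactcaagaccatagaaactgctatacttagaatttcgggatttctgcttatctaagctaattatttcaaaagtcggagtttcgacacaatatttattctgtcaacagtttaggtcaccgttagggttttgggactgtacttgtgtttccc
Selenbp2, chr3:94693323-94693572, plus strand: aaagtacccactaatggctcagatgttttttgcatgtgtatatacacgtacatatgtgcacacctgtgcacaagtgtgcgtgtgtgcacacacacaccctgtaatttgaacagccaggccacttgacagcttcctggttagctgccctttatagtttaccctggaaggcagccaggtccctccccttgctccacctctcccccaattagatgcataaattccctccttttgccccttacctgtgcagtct
Moxd1, chr10:24223267-24223516, plus strand: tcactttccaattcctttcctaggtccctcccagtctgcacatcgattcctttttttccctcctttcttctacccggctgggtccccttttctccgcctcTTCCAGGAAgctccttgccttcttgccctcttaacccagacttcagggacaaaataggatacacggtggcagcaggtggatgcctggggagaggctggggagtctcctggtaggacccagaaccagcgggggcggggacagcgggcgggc
The Stat5 motif was searched as TTCNNNGAA on both strands of the full windows and reads the same on either strand. It was present in 1 of 7 windows, that of Moxd1, where it begins at position -150 from the start, and in 8.30% of all 32851 windows. The E-box CACGTG that clock factors bind was in 0 of 7 windows and in 7.15% of all. The core ATTGAT, bound by Onecut1 and Cux2, was in 0 of 7 windows and in 7.54% of all. A missing match says only that these letters are not in this window. The 7 windows therefore share none of the 3 motifs, and the single match lies before a gene whose mean signal was below the array median in 7 of 8 groups.

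After 21 days of HFD, C8b, Cyp7b1 and Selenbp2 were lower in B6N livers, and Cyp7b1, C8b and C6 were lower in C3H livers, by 1.61 to 2.07 fold. In the fit over all genes with limma, 3 of 9 genes were called lower in B6N, where 0.281% of all genes were called lower, and 3 of 9 in C3H, where 0.336% were. In 129, 0 of 9 were called (0.135% of all genes called lower), with 1 at an unadjusted p under 0.05. In B6J, 0 of 9 were called (0.166% called lower), with 4 at an unadjusted p under 0.05. Of these, C8b, Cyp7b1 and Selenbp2 were lower and Moxd1 was higher. The share of all genes at an unadjusted p under 0.05 was not counted, so unadjusted counts here and below have no baseline. Called means an adjusted p under 0.05 after Benjamini-Hochberg adjustment over all genes, and none of the 9 was called higher in any strain, where 0.441% (129), 0.13% (B6J), 0.637% (B6N) and 0.517% (C3H) of all genes were. On the mean over strains, too, 0 of 9 were called higher, against 2.02% of all genes. The median log2 difference of the 9 genes was -0.57 in C3H, -0.17 in B6N, -0.19 in B6J and 0.05 in 129, with medians over all genes between -0.003 and 0.009. Averaged over the 4 strains with equal weight, C8b, Cyp7b1 and Selenbp2 were called lower, 3 of 9 against 1.14% of all genes, and the median of the 9 was -0.30. No gene separated its HFD livers from its controls completely in any strain. Complete separation with HFD lower occurred for 0.01% of all genes in C3H, 0.115% in B6N, 0.201% in B6J and 0.0752% in 129.

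**Figure D1:**
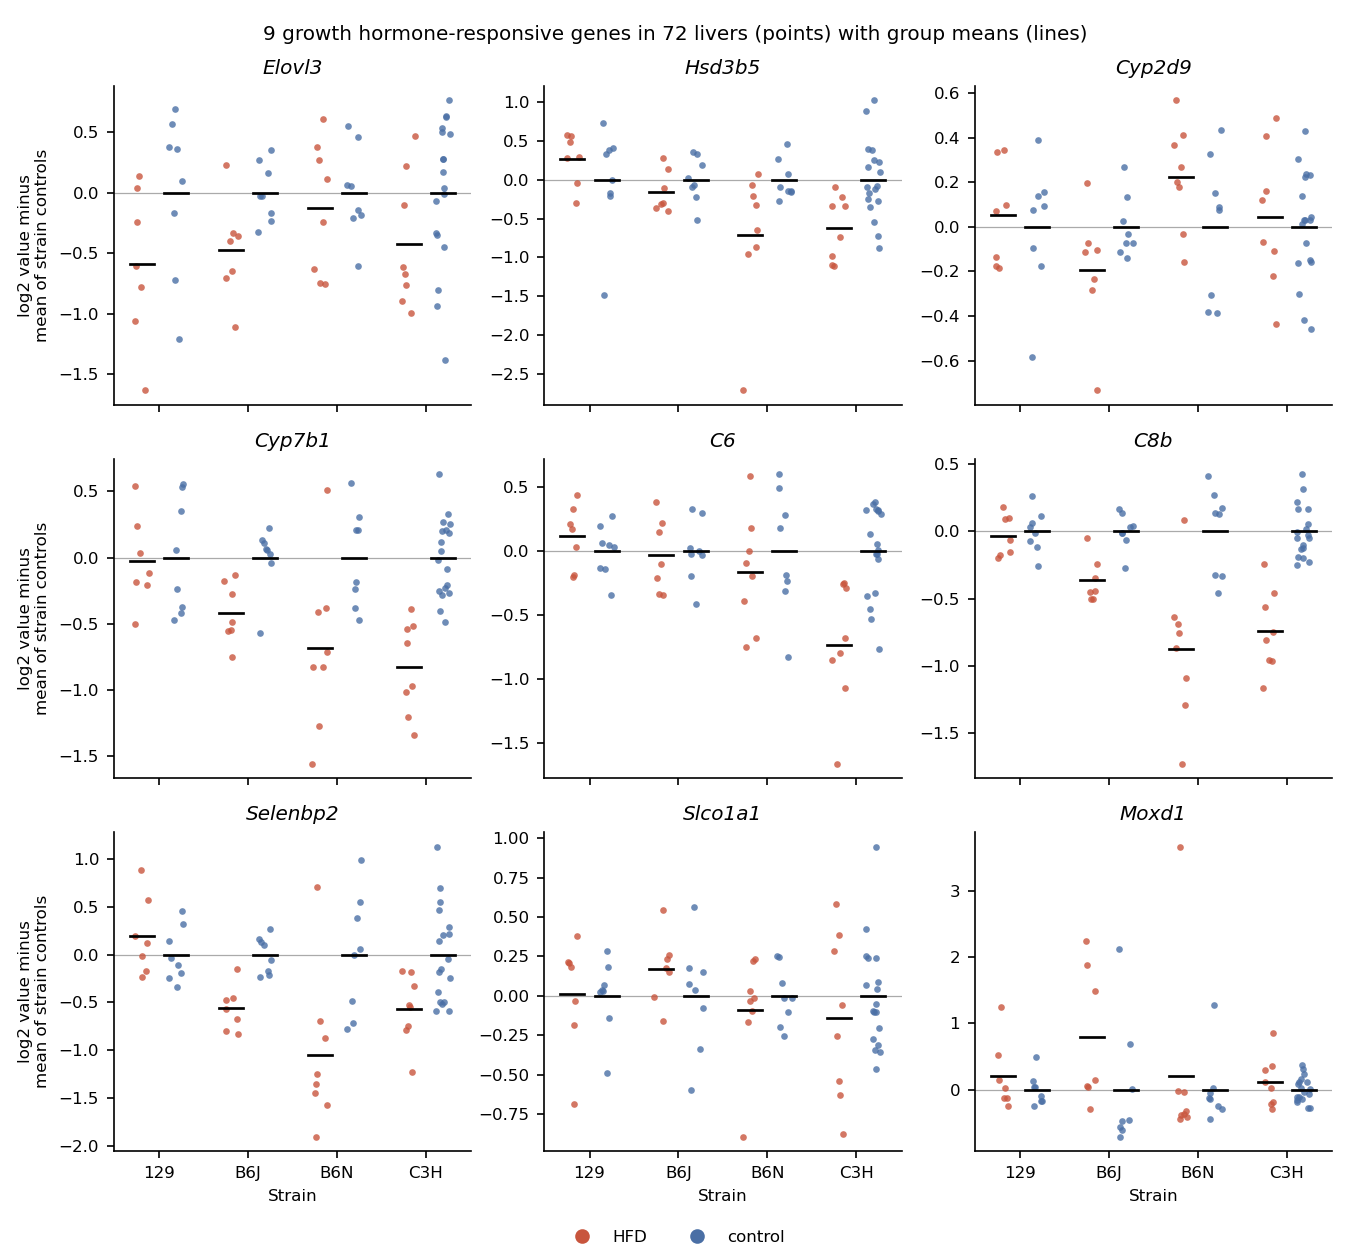
Each point is 1 liver, as its log2 value minus the mean of the controls of its strain (vertical axis, log2), by strain (horizontal axis), for the 9 genes; black lines are group means. In B6N, 7 of 8 HFD livers lie below every control for C8b, while 1 HFD liver lies far above the others for Moxd1.

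Cyp7b1, the oxysterol 7α-hydroxylase of the alternative bile acid pathway, fell in C3H and in B6N. In C3H its values were 9.30, 9.83 and 10.25 log2 (lowest, median, highest of 8) in HFD livers, against 10.15, 10.65 and 11.27 in 18 controls. All 8 HFD livers lay below the control median and 7 lay below every control. The difference was -0.83 ± 0.15 log2 (SE; 1.77-fold lower; 95% interval 1.44 to 2.19; limma adjusted p = 3.4e-04), and this call was lost with array weights (adjusted p = 0.071). In B6N the values were 9.35, 10.14 and 11.42 in HFD livers, against 10.44, 10.92 and 11.47 in controls. In B6N 5 of 8 HFD livers lay below every control, and the highest HFD liver lay within the control range. The B6N difference was -0.68 ± 0.18 (1.61-fold lower; limma adjusted p = 0.034). This call was lost in 9 of the 16 fits that left out 1 B6N array, with adjusted p-values of 0.058 to 0.19, and remained when the replicate number was a block (adjusted p = 0.040). It was also lost with arrays centred on their medians (adjusted p = 0.052), array weights (0.050), every probe set tested (0.059) and the B6N arrays fitted alone (0.26). In B6J the values were 10.34, 10.61 and 10.96 in HFD livers, against 10.53, 11.15 and 11.32 in controls, a difference of -0.42 ± 0.19 (limma adjusted p = 0.77). In 129 the difference was -0.03 ± 0.19, with HFD livers between 11.83 and 12.87 and controls between 11.86 and 12.89. The 129 groups overlapped over nearly their whole range. Averaged over strains, Cyp7b1 was 1.40-fold lower (-0.49 ± 0.09; limma adjusted p = 5.7e-05).

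Hsd3b5, a male-specific 3-ketosteroid reductase, was not called in any strain. In B6N its values were 7.27, 9.50 and 10.07 in HFD livers, against 9.72, 9.87 and 10.45 in controls. In B6N 5 of 8 HFD livers lay below every control. The B6N difference of -0.71 ± 0.24 (limma adjusted p = 0.26) was -0.43 without HFD replicate 5, the liver with the lowest value. In C3H the values were 7.88, 8.45 and 8.89 in HFD livers, against 8.11, 8.90 and 10.01 in controls, and all 8 HFD livers lay below the control median. That C3H difference was -0.61 ± 0.21 (limma adjusted p = 0.22). In 129 it was 0.27 ± 0.25 and in B6J -0.15 ± 0.25. Probe sets shared with Hsd3b4 and Gm10681 were not used, and signal from such near copies cannot be separated fully by array probes.

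Cyp2d9, a male-biased steroid 16α-hydroxylase of the cytochrome P450 family, differed little between diets. Its log2 differences were 0.04 ± 0.11 in C3H, 0.22 ± 0.13 in B6N, -0.19 ± 0.13 in B6J and 0.05 ± 0.13 in 129, none called. The averaged difference of 0.03 ± 0.06 has a 95% interval of -0.09 to 0.16, so that a mean change beyond 1.11-fold in either direction lay outside it. HFD livers of C3H lay between 9.52 and 10.44, within or just above the control range of 9.50 to 10.38. Probes for Cyp2d9 can also take up signal from its close Cyp2d relatives.

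C8b, the β chain of complement component 8 that takes part in the membrane attack complex, had the lowest adjusted p-values of the 9 genes in B6N and C3H. In B6N its values were 9.38, 10.29 and 11.19 log2 in HFD livers, against 10.65, 11.24 and 11.52 in controls. All 8 HFD livers lay below the control median and 7 lay below every control. The difference was -0.87 ± 0.13 (1.83-fold lower; 95% interval 1.53 to 2.19; limma adjusted p = 4.6e-06). In C3H the values were 9.17, 9.56 and 10.09 in HFD livers, against 10.09, 10.30 and 10.76 in controls. In C3H, too, 7 of 8 HFD livers lay below every control, with a difference of -0.74 ± 0.11 (1.67-fold lower; 95% interval 1.43 to 1.94; limma adjusted p = 4.1e-06). In B6J the values were 10.94, 10.99 and 11.39 in HFD livers, against 11.17, 11.45 and 11.61 in controls. There 5 of 7 HFD livers lay below every control, and the difference of -0.36 ± 0.14 was not called (limma adjusted p = 0.57). In 129 the difference was -0.03 ± 0.14, with HFD livers between 12.73 and 13.11 and controls between 12.68 and 13.19. The HFD range in 129 lay inside the control range. Averaged over strains, C8b was 1.42-fold lower (-0.50 ± 0.06; limma adjusted p = 1.2e-08).

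C6, another terminal complement protein of the membrane attack complex, fell in C3H. Its values there were 5.81, 6.73 and 7.22 in HFD livers, against 6.71, 7.51 and 7.85 in controls. All 8 HFD livers lay below the control median and 4 lay below every control. The difference was -0.73 ± 0.15 (1.66-fold lower; 95% interval 1.35 to 2.04; limma adjusted p = 0.0014). The differences in the other strains were 0.12 ± 0.18 in 129, -0.03 ± 0.18 in B6J and -0.17 ± 0.17 in B6N, none called. Among the 13 measured genes of the terminal complement list, C6, C8b and C9 were called lower in C3H, C8b alone in B6N and none in B6J. C7 was called higher in 129 (0.59 ± 0.11). Shares of all genes called lower were 0.336% in C3H, 0.281% in B6N and 0.166% in B6J. The share called higher in 129 was 0.441%. C8a, which encodes the partner chain of C8b, differed by -0.32 in C3H and -0.19 in B6N, not called.

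Selenbp2, a selenium-binding protein of the liver cytosol, had the largest called HFD difference of the 9 genes. In B6N its values were 8.80, 9.40 and 11.41 in HFD livers, against 9.92, 10.73 and 11.69 in controls. In B6N 6 of 8 HFD livers lay below every control, and HFD replicate 8 lay high in the control range. The difference was -1.05 ± 0.23 (2.07-fold lower; 95% interval 1.51 to 2.84; limma adjusted p = 0.0040), and -1.30 without that liver. The call was lost when the B6N arrays were fitted alone (adjusted p = 0.16). In B6J the values were 10.49, 10.75 and 11.17 in HFD livers, against 11.09, 11.34 and 11.59 in controls. In B6J 6 of 7 HFD livers lay below every control, yet the difference of -0.56 ± 0.24 was not called (limma adjusted p = 0.70) unless the B6J arrays were fitted alone (adjusted p = 0.013). In C3H the difference was -0.57 ± 0.19 (limma adjusted p = 0.25), and all 8 HFD livers lay below the control median. In 129 it was 0.19 ± 0.24, not called. Selenbp2 and Selenbp1 are near copies whose probes can share signal, and Selenbp1 was called lower in B6N as well (-0.75; limma adjusted p = 7.8e-04).

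Elovl3, a fatty acid elongase of very long chains whose mRNA in mouse liver follows a daily rhythm, was not called in any strain. In B6J its values were 10.25, 10.96 and 11.59 in HFD livers, against 11.03, 11.33 and 11.71 in controls, and 6 of 7 HFD livers lay below every control. The differences were -0.42 ± 0.22 in C3H, -0.12 ± 0.26 in B6N, -0.47 ± 0.27 in B6J and -0.59 ± 0.27 in 129. All 4 had a negative sign, and their mean of -0.40 ± 0.13 missed the threshold (limma adjusted p = 0.062). It passed in 13 of the 72 fits that left out 1 array, with adjusted p-values of 0.021 to 0.048, and among brighter genes only (adjusted p = 0.037). Of the other elongases, Elovl5 was higher in B6N (1.001 ± 0.154) and C3H (0.653 ± 0.131), and Elovl2 was higher in B6J, B6N and C3H, both called. Of 18 measured clock genes, 3 were called higher in 129, Ciart (1.53 ± 0.34), Per3 and Per2, and 0 were called in B6J, B6N and C3H, where 6, 1 and 1 had an unadjusted p under 0.05 in limma. On the mean over strains 7 were called higher and 1, Arntl, lower, against 2.02% and 1.14% of all genes. In 129, 0.441% of all genes were called higher. The part of the clock in the Elovl3 values was not tested.

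Slco1a1, a transporter that takes up organic anions into hepatocytes, did not pass in any strain. Its differences were -0.14 ± 0.14 in C3H, -0.09 ± 0.16 in B6N, 0.17 ± 0.17 in B6J and 0.01 ± 0.17 in 129. The averaged difference of -0.01 ± 0.08 had a 95% interval of -0.17 to 0.15. In C3H its values were 8.82, 9.54 and 10.28 in HFD livers, against 9.24, 9.63 and 10.65 in controls. There 3 of 8 HFD livers lay below every control and 4 above the control median. The related carrier Slco1a4 was called lower in 129 (-0.94 ± 0.21) and in B6N (-0.98 ± 0.21).

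Moxd1, a monooxygenase related to dopamine β-hydroxylase, had mean values below the array medians in 7 of 8 groups, so its mean level in those groups cannot be told from background. Only in B6J HFD livers was the mean above the median, by 0.45 log2. The B6J values were 3.93, 4.38 and 6.48 in HFD livers, against 3.51, 3.76 and 6.35 in controls, and 7 of 7 HFD livers lay above the control median. The difference of 0.79 ± 0.35 was not called (limma adjusted p = 0.77), and those of the other strains were 0.12 to 0.21. In B6N, HFD replicate 8 had 7.71 against 4.01 in the next HFD liver, and lay 3.14 above its array median. Without that liver the B6N difference was -0.29, not called. Single B6J livers also lay above their array medians, such as HFD replicate 6 by 1.86 and control replicate 1 by 1.78.

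**Figure D2:**
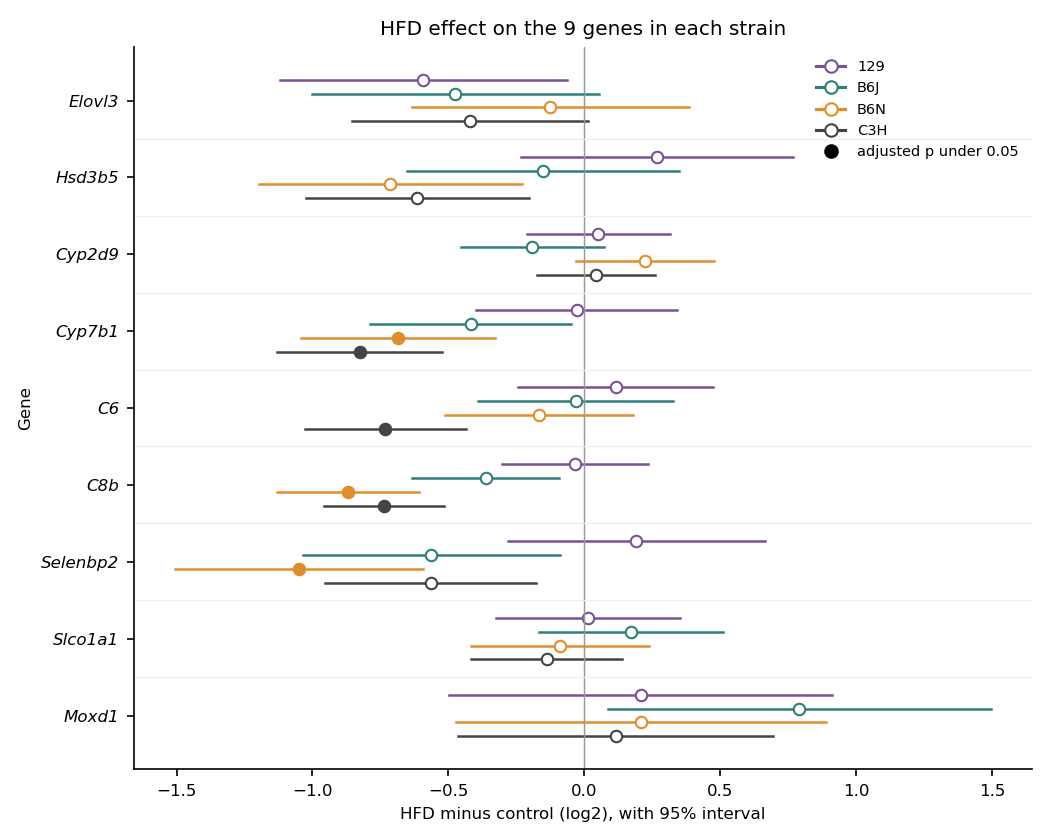
HFD minus control (horizontal axis, log2) for the 9 genes in each strain, with 95% intervals from limma; filled points have an adjusted p under 0.05. Filled points are found in B6N (Cyp7b1, C8b and Selenbp2) and C3H (Cyp7b1, C6 and C8b), all below 0.

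Whether the 4 strains differed in their HFD effects was tested with the F test over 3 differences. It called 0 of 9 genes, against 0.125% of all genes. At an unadjusted p under 0.05 in limma there were 5, with no share over all genes counted beside them. C8b came closest (adjusted p = 0.054), and its HFD effect in B6N minus that in 129 was -0.84 ± 0.19 (limma adjusted p = 0.072). The 6 pairwise differences between strains called none of the 9 either. Of all genes they called 0.00502% (B6J minus 129), 0.0401% (B6N minus 129), 0.0602% (C3H minus 129), 0% (B6N minus B6J), 0.0401% (C3H minus B6J) and 0.0451% (C3H minus B6N). The F test called 1 of 9 genes after quantile normalisation over all arrays, 2 with array weights and 1 among bright genes, so its count of 0 depends on these settings. Calls in B6N and C3H beside none in 129 are not shown by the fit used here to be a difference between strains. Array medians were higher in 129, and their part in this comparison was not tested.

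B6N and B6J, close substrains, could be compared directly. Among controls, B6N minus B6J called 0 of 9 genes, against 0.0351% of all genes in either direction, with 3 at an unadjusted p under 0.05 in limma: C6 (-0.63 ± 0.17; adjusted p = 0.38), Selenbp2 (-0.61 ± 0.23) and C8b (-0.33 ± 0.13). Among HFD livers, a comparison added after the data had been seen, B6N was lower than B6J for 3 of 9 genes, against 0.0903% of all genes called lower. C8b was 1.79-fold lower (-0.84 ± 0.14; limma adjusted p = 8.9e-05), with 7 of 8 B6N HFD livers below every B6J HFD liver. Selenbp2 was 2.14-fold lower (-1.10 ± 0.24; adjusted p = 0.014) and C6 1.70-fold lower (-0.76 ± 0.18; adjusted p = 0.039). The C6 call was lost in 10 of the 31 fits that left out 1 B6 array, and the Selenbp2 call in 3. Without B6N HFD replicate 8, Moxd1 was called as well (-1.26; adjusted p = 0.018), and without HFD replicate 2 or 5 C8b alone remained. The difference between the HFD effects of B6N and B6J was called for 0 of 9 genes. At an unadjusted p under 0.05 in limma there were 2, Cyp2d9 (0.42 ± 0.18) and C8b (-0.51 ± 0.19). For the unadjusted counts, here and among controls, no share over all genes was counted.

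The 9 genes varied between livers of the same group, and most of them together. For each pair, the deviations from the group means were correlated over the 72 livers, with 100000 permutations within groups and adjustment over the 36 pairs. Of these pairs, 22 were called, all positive, and the median r was 0.35. Pairs of other genes were not counted in this way. The counts of called pairs, here and within sets, are therefore not shown to be particular to the 9 genes. Cyp7b1 and C8b were the closest pair (r = 0.85, rho = 0.79, n = 72; permutation p = 1e-05 for each, the smallest possible; adjusted p = 4e-05), with r = 0.79 without the 2 livers farthest from the Cyp7b1 median. Within sets, r of this pair was 0.74 in 129, 0.90 in the B6 arrays and 0.87 in C3H. Cyp7b1 also varied with Selenbp2 (r = 0.81, rho = 0.79) and with C6 (r = 0.74, rho = 0.73), and C8b with Selenbp2 (r = 0.74, rho = 0.69). C8b, Cyp7b1, C6 and Selenbp2 thus formed 6 pairs with r between 0.61 and 0.85.

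**Figure D3:**
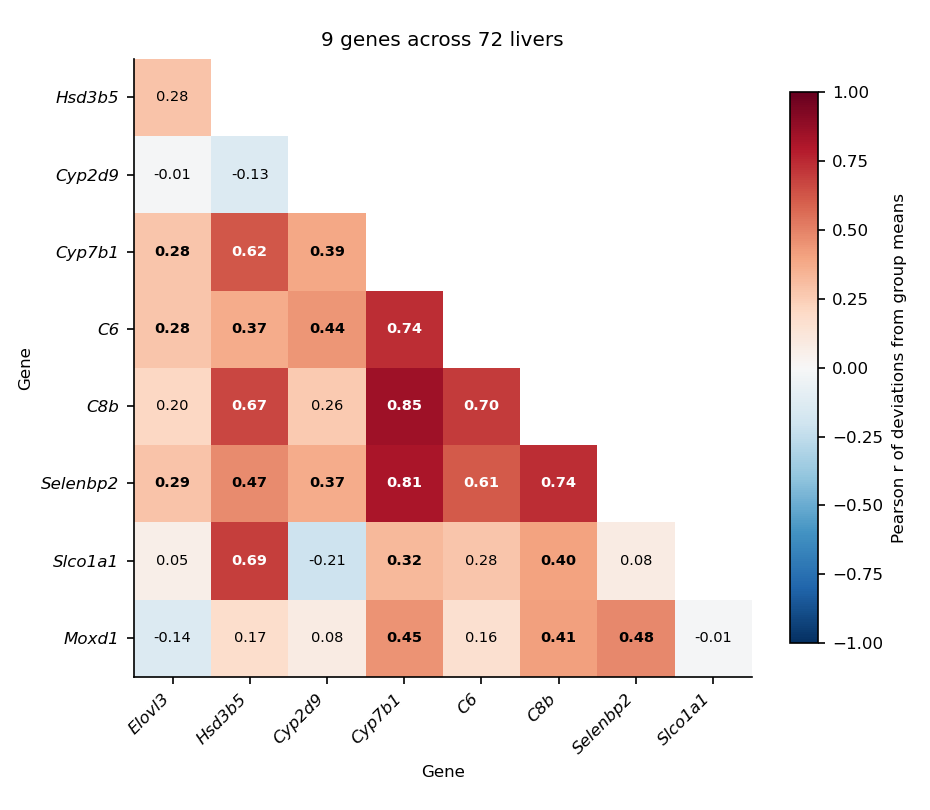
Pearson r of deviations from the group means over 72 livers for the 36 pairs of genes, by colour and number; bold numbers have an adjusted permutation p under 0.05. Cyp7b1, C6, C8b and Selenbp2 form a block of high values, Hsd3b5 is also high with Slco1a1, C8b and Cyp7b1, and the column of Elovl3 is pale.

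Hsd3b5 varied with Slco1a1 (r = 0.69, rho = 0.69; permutation adjusted p = 4e-05), which lies outside the block, and with C8b (r = 0.67, rho = 0.66). Its r with Cyp7b1 was 0.62 (rho = 0.57), with Selenbp2 0.47 and with C6 0.37. The r of Hsd3b5 with C8b and with Cyp7b1 exceeded that of C6 with Selenbp2 (0.61), so the block has no sharp edge. Slco1a1 was weakly related to Selenbp2 (r = 0.08) and negatively, not called, to Cyp2d9 (r = -0.21). Over all livers Elovl3 had no r above 0.29 with any of the other 8, but in C3H alone it was called with Selenbp2 (r = 0.68, rho = 0.73, n = 26; permutation adjusted p = 0.0013), Cyp7b1 (r = 0.53) and C8b (r = 0.51). In 129 its r was 0.56 with Cyp7b1 and 0.54 with Hsd3b5, not called, and in the B6 arrays it was -0.16 with Cyp7b1 and -0.15 with Selenbp2. Moxd1 had its highest r with Selenbp2 (r = 0.48, and 0.30 without the 2 farthest livers). Within sets, 17 of 36 pairs were called in the 31 B6 arrays, 13 in the 26 C3H arrays and 2 in the 15 arrays of 129. Exceptions in sign were called for Elovl3 with Moxd1 in B6 (r = -0.43) and Slco1a1 with Moxd1 in C3H (r = -0.54). The C3H pair was not called by rho (rho = -0.45; permutation adjusted p = 0.094). Moxd1 lay below the array median in every C3H liver, so its variation there cannot be told from background. Arrays of a set had like medians, and joint processing within a set is not stated in the labels. The first principal component of the C3H arrays, computed without the 9 genes, held 26.9% of the variance, and its r was 0.85 with Slco1a1, 0.76 with Hsd3b5, 0.27 with C8b and 0.20 with Cyp7b1. Its part in the Hsd3b5 and Slco1a1 relation was not tested.

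**Figure D4:**
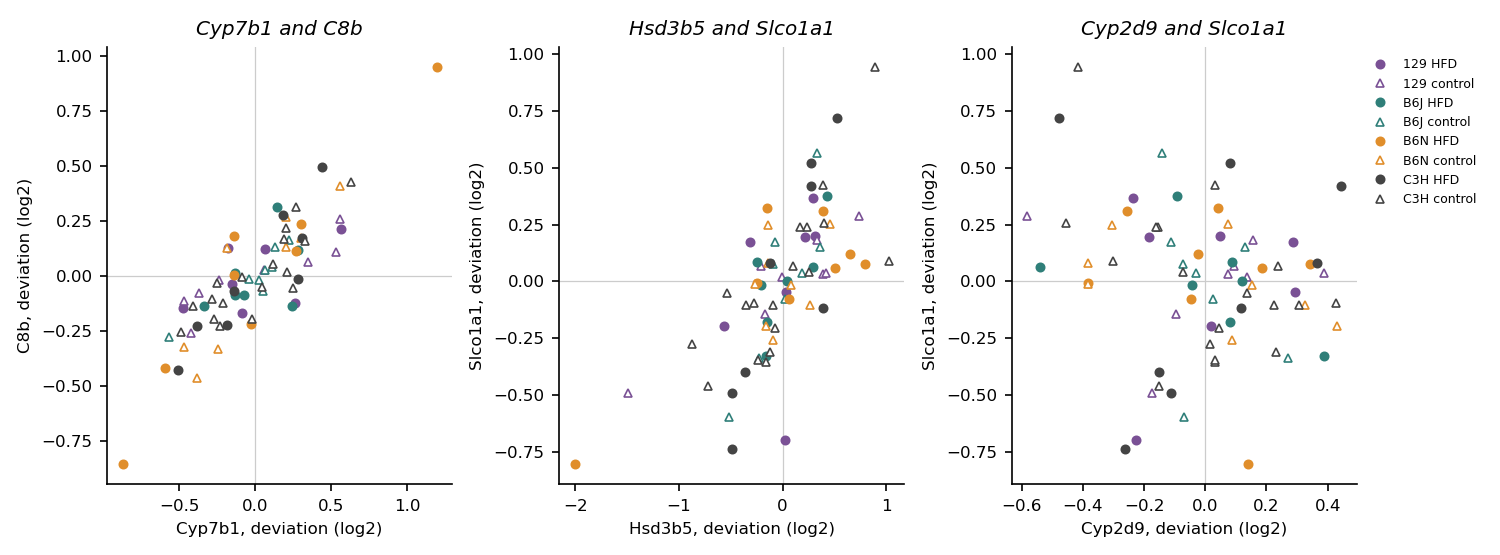
Deviations from the group mean (log2, both axes) of 3 gene pairs in 72 livers, HFD as filled circles and control as open triangles, coloured by strain. Cyp7b1 and C8b (r = 0.85) lie along a line with B6N HFD replicate 8 at the upper and replicate 5 at the lower end, Hsd3b5 and Slco1a1 rise together (r = 0.69), and Cyp2d9 and Slco1a1 do not (r = -0.21).

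For 5 of the 9 genes, C8b, Cyp7b1, Hsd3b5, Moxd1 and Selenbp2, the SD was widest among the 8 B6N HFD livers, and 2 of these stood at opposite ends. B6N HFD replicate 8 was the highest of its group for 7 of the 9 genes, all but Elovl3 and Slco1a1, and lay on average 0.97 log2 above the group means, or 0.65 over the 8 genes without Moxd1. B6N HFD replicate 5 was the lowest for 6 genes, C6, C8b, Cyp7b1, Hsd3b5, Moxd1 and Slco1a1, and lay on average 0.70 below, with or without Moxd1. Cyp2b9, a P450 gene higher in female liver, ran the other way in these livers, at 3.43 in replicate 8 and 9.48 in replicate 5. Without replicate 8 the B6N differences were -1.01 for C8b, -1.30 for Selenbp2 and -0.86 for Cyp7b1, all called. Without replicate 5 they were -0.75, -0.97 and -0.56, and the Cyp7b1 call was lost (limma adjusted p = 0.19).

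Genes whose deviations were most like the mean of the 9 over the 72 livers were named by the highest Pearson r. They were Ces3b (0.75), Lifr (0.74), Cyp2c70 (0.69), Selenbp1 (0.67), Aadat (0.66), C8a (0.64), Nrp1 (0.62), Adgrf1 (0.61), Egfr (0.60) and Hsd17b2 (0.60). Cyp2c70, a bile acid hydroxylase of mice, was called lower in B6N (-0.89; limma adjusted p = 1.6e-05) and in C3H (-0.69; adjusted p = 1.6e-04). Lifr, the leukaemia inhibitory factor receptor, and Egfr, the epidermal growth factor receptor, were called lower in C3H (-0.685 and -0.997). Nrp1, in contrast, was called higher on the mean over strains (0.29; limma adjusted p = 0.018). Cyp2b9 had the lowest r of all genes (-0.64), seen after the values were known. In 129 and B6J 0 livers had Cyp2b9 above the array median, so its variation there cannot be told from background.

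Among other male-biased liver genes, all calls were toward lower values under HFD. The list was chosen with earlier results of these data known, so its direction is not independent support for that of the 9 genes. Of 29 measured in a list of 36, 0 were called in 129, 2 lower in B6J, 4 lower in B6N and 10 lower in C3H, and none higher in any strain, with medians of -0.01, -0.22, -0.35 and -0.32. Of all genes, 0.135% (129), 0.166% (B6J), 0.281% (B6N) and 0.336% (C3H) were called lower. On the mean over strains 15 were called lower and 0 higher, against 1.14% and 2.02% of all genes. Gstp1, a glutathione transferase, was called lower in B6J (-0.68 ± 0.13), B6N (-0.94 ± 0.13) and C3H (-0.73 ± 0.11). Nat8, an acetyltransferase, was also called in these 3 strains (-0.75, -0.80 and -0.66). Over the 72 livers 28 of the 29 had a positive r with the mean of the 9 genes, with a median r of 0.36. Among all genes but the 9, 9388 of 19929 had a positive r (median -0.01). The r was also positive for 13 of 13 hepatocyte markers (median 0.24), so a positive r was not particular to male-biased genes. Of 19 measured female-biased genes, 3 were called higher in C3H, 4 in B6N, 2 in B6J and 0 in 129, with medians between 0.04 and 0.09. Of all genes, 0.517%, 0.637%, 0.13% and 0.441% were called higher in these strains, in that order. Cyp2b9 was called higher in B6N (3.02 ± 0.41) and C3H (3.49 ± 0.34). In C3H it had 4.30, 6.32 and 6.81 log2 (lowest, median, highest) in HFD livers, against 2.08, 2.50 and 5.21 in controls. Cyp2b9 lay below the array median in 7 of 8 controls of B6N and in 17 of 18 of C3H, so the size of this difference is uncertain, and its probes can share signal with other Cyp2b genes. Abcd2, a peroxisomal transporter of very long chain fatty acids, was called higher in B6J (1.29 ± 0.31), B6N (1.76 ± 0.30) and C3H (1.57 ± 0.25). Cyp3a44 was the 1 member of this list called lower, in 129, B6J and B6N (-1.26, -1.20 and -1.48), and was called higher in C3H (0.53).

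**Figure D5:**
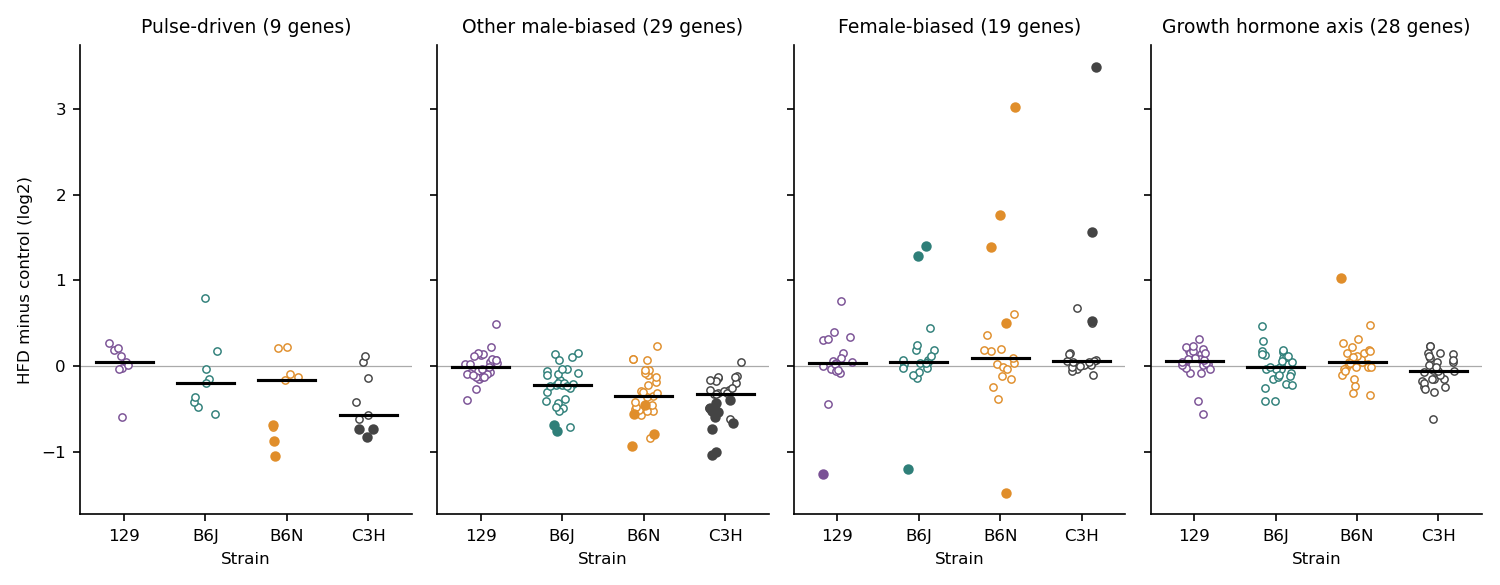
HFD minus control (vertical axis, log2) of each measured gene by strain, for the 9 pulse-driven genes, 29 other male-biased genes, 19 female-biased genes and 28 genes of the growth hormone axis; lines are medians and filled points have an adjusted p under 0.05. Male-biased genes lie mostly below 0 in B6J, B6N and C3H, while most axis genes lie near 0.

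Of 28 measured mRNAs of the growth hormone axis itself, 1 was called in any strain. It was Igfbp1 in B6N (1.03 ± 0.27, higher; limma adjusted p = 0.042), a binding protein of the insulin-like growth factors that fasting and low insulin raise. In B6N 0.637% of all genes were called higher and 0.281% lower, and 1 call among 28 genes is too few to compare with these shares. On the mean over strains 0 of 28 were called, against 1.14% of all genes called lower and 2.02% higher. Of the 28, 8 had an unadjusted p under 0.05 in limma on that mean, and the share of all genes under it was not counted. Ghr, the receptor, differed by -0.06 ± 0.07 in C3H, 0.02 ± 0.09 in B6N, 0.12 ± 0.09 in B6J and 0.03 ± 0.09 in 129. Stat5b differed by -0.15 ± 0.13 in C3H and 0.08 ± 0.15 in B6N, and Jak2 by -0.15 ± 0.15 and 0.05 ± 0.17. Igf1, the hormone that growth hormone induces in liver, differed by -0.30 ± 0.09 in C3H (limma adjusted p = 0.097), and Igfals by -0.18 ± 0.17. Feedback targets that follow each pulse had wide errors. Socs2 differed by 0.48 ± 0.39 in B6N and -0.25 ± 0.33 in C3H, Cish by 0.31 ± 0.40 and -0.24 ± 0.34, and the repressor Bcl6 by -0.32 ± 0.50 and -0.61 ± 0.43. Cux2, Onecut1 and Stat5a were not called in any strain. Stat5 activity is set by phosphorylation, which mRNA arrays do not measure.

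Markers of cell types were read beside these results. Hepatocyte markers were called in 0 of 13 in B6N, where their mean level lay between 11.98 and 12.36 log2 in HFD livers and between 11.98 and 12.36 in controls. In C3H 1 of 13, Cps1, was called lower (-0.48 ± 0.10), and the mean level lay between 11.05 and 11.62 in HFD livers and between 11.26 and 11.68 in controls. The hepatocyte median in C3H was -0.12, against -0.57 for the 9 genes. Kupffer cell markers were called higher in 6 of 13 in 129, where none of the 9 genes was called, and in 0 of 13 in B6J, B6N and C3H. In 129, 0.441% of all genes were called higher. On the mean over strains, C8b, Cyp7b1 and Selenbp2 were called lower. There 6 of 13 Kupffer cell markers were called higher, among them Adgre1 (0.43 ± 0.10) and Cd5l (0.41 ± 0.08). The 2 hepatocyte markers Cps1 (-0.31 ± 0.06) and Tat (-0.25 ± 0.08) were called lower. On that mean 2.02% of all genes were called higher and 1.14% lower. Of 5 adipocyte markers, Cidec, a lipid droplet protein, was called higher in B6N (1.04 ± 0.16) and on the mean (0.47 ± 0.08), and the other 4 were not called. The part of these markers in the results was not tested. Pancreatic acinar markers varied widely in B6N, with mean levels between 4.88 and 8.11 in HFD livers and between 4.61 and 6.57 in controls, and 0 of 14 were called. Over the 72 livers the acinar markers had r between -0.11 and -0.04 with the mean of the 9 genes. Hepatocyte markers had a positive r in 13 of 13 (median 0.24, highest 0.52 for Fga), and Kupffer cell markers in 12 of 13 (median 0.13). Among all genes but the 9, 9388 of 19929 had a positive r, with a median of -0.01. The part of hepatocyte and Kupffer cell content in the variation between livers was not tested.

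The first principal component of the B6 arrays, again without the 9 genes, held 29.5% of the variance. Its r was 0.60 with Slco1a1, -0.54 with Cyp2d9, -0.27 with Selenbp2, -0.11 with Cyp7b1 and 0.07 with C8b. The arrays were divided into 2 parts by the sign of their value on it, and B6N control replicate 4 lay close to the cut (-0.30). The parts went with the replicate number of the sample titles: numbers 1 to 4 of the controls of both strains fell in one part and 5 to 8 in the other, and the division came after number 5 in B6J HFD livers and after number 3 in B6N HFD livers. No label says what the number stands for. In B6N the HFD difference of C8b was -0.85 in one part and -0.92 in the other, that of Selenbp2 was -1.12 in both, and that of Cyp7b1 was -0.80 and -0.68. In B6J, where the second part held 2 HFD livers, C8b differed by -0.34 and -0.46 and Selenbp2 by -0.51 and -0.57. Each of these had the sign that it had over all arrays of its strain. Slco1a1 in B6N did not, with 0.06 in one part and -0.16 in the other, against -0.09 over all B6N arrays. The parts were chosen after the data were seen and no errors were computed within them, so equal signs are no independent support.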

How the data were processed

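Liver RNA was isolated with a miRNeasy kit including DNase, per the labels' protocols, and hybridised to 72 arrays. The deposited log2 values are per probe set, and per the submitters' processing notes RMA was run in Affymetrix Expression Console 1.1. Joint or separate normalisation of the strains is not given in the sources used here. In all, the table held 35556 probe sets. Symbols came from the platform annotation, updated by Entrez identifier; 21789 probe sets had a single symbol (21698 of them matched), 1621 had more, 12146 were unlisted. Arrays have no read depth, so their number limits precision, and no columns were identical (within groups, arrays correlated at up to 0.9954).

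Each gene was fitted with limma 3.58.1 in R 4.3.3, with 1 mean for each of 8 groups and 64 residual degrees of freedom. Tests were two-sided, moderated with eBayes, and adjusted by Benjamini-Hochberg over 19938 genes, at 0.05. Every adjusted p printed comes from limma unless a permutation is named. Differences are given ± SE. Nothing in the labels names cages, litters or days, so p-values cover only the spread between samples, which may be technical in part. Correlations used numpy 2.4.6 and scipy 1.17.1. The fit was tested on simulated data.

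The 9 genes and all lists were chosen with earlier results of these data known. From each list, at most 4 called genes per comparison could be named, largest change first, besides 11 axis genes always named and the 10 genes most like the 9. Same-numbered HFD and control livers had deviations correlated at -0.22 to 0.30 in 129, -0.29 to 0.50 in B6J, 0.10 to 0.46 in B6N and -0.27 to 0.19 in C3H, so every pair exceeded 0.1 in B6N alone. The fit has no block, and the replicate number was a block in an alternative for every comparison. Alternatives changed the normalisation, weights, gene filter, samples and block.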

Additional observations from a re-analysis of the deposited data

Results flagged for a closer look

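In 7 of 63 combinations of a gene and a group of 7 or 8 livers, 1 liver stood far from the rest of its group, where chance gives about 1 in 20. Hsd3b5 had 10.57 log2 in 129 control replicate 5, against 11.85 in the next lowest. Hsd3b5 had 7.27 in B6N HFD replicate 5, against 9.03 in the next lowest, and Slco1a1 had 10.08 in the same liver, against 10.80. Cyp7b1 had 10.53 in B6J control replicate 6, against 11.05 in the next lowest. Selenbp2 had 11.41 in B6N HFD replicate 8, against 10.01 in the next highest, and Moxd1 had 7.71 in the same liver, against 4.01. Moxd1 had 5.32 in B6N control replicate 5, against 4.07 in the next highest. The 18 C3H controls were too many for this test. The 2 B6N HFD livers account for 4 of the 7 values, and the B6N results without each of them stand beside the main ones in the report. What set these livers apart was not tested.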

How the results depend on the processing

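Of 515 values of single genes under alternatives other than leaving out an array, 500 kept their call and sign. Another 11 changed their call with the same sign, and 4 that were called in neither setting changed sign. Most of the 515 values belonged to effects not called in the main fit, so these counts say little about the called effects, whose losses follow. With only the arrays of the strain, the number of the 9 genes called was 1 in B6J and 1 in B6N, where Cyp7b1 (adjusted p = 0.26) and Selenbp2 (0.16) were lost. Cyp7b1 in B6N was also lost with arrays centred on their medians (0.052), array weights (0.050) and every probe set tested (0.059), and in C3H with array weights (0.071). The test of strain differences called 1 gene after quantile normalisation over all arrays, 2 with array weights and 1 among bright genes. Pairs called within 129 numbered 2 and within C3H 13, against 22 over all livers, with fewer livers. Leaving out 1 array gave 0 to 0 called genes in 129 and B6J, 2 to 3 in B6N, 3 to 3 in C3H, 3 to 4 on the mean and 1 to 4 in B6N against B6J HFD livers. The C6 difference there was lost with centred arrays (0.074), every probe set (0.053) and the block on the 2 parts of the B6 arrays (0.079). The cause of these changes was not tested. With the replicate number as a block, 0 genes were called in 129 and B6J, 3 in B6N, 3 in C3H and 3 on the mean, and no call changed. For B6N against B6J livers the block used the number shared by both strains and was chosen after the data were seen, since a block within strains absorbs that difference; it called 0 among controls and 3 among HFD livers. The alternatives on the 2 B6 parts were also chosen after the data were seen.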

Other observations

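Beyond the 9 genes, bile acid synthesis held further genes called lower. Cyp7a1, the rate-limiting enzyme of the classical pathway, was lower in B6N (-2.12 ± 0.40; limma adjusted p = 4.7e-04) and in C3H (-1.53 ± 0.34; adjusted p = 0.0057). Cyp39a1, which hydroxylates another oxysterol, was lower in B6J (-0.75 ± 0.18). Of the 11 genes of this list, 2 were called in C3H, 2 in B6N, 1 in B6J and 0 in 129. All were lower, with Cyp7b1 among those of B6N and C3H. Shares of all genes called lower were 0.336% in C3H, 0.281% in B6N, 0.166% in B6J and 0.135% in 129. Among organic anion carriers, Slc22a7 was called higher in B6N (0.83 ± 0.19) and the bile salt export pump Abcb11 lower on the mean over strains (-0.32 ± 0.07). Over the 72 livers Slc22a7 had an r of 0.51 with the mean of the 9 genes.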
